A study of Rattus norvegicus with 24 samples.

Results

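The genes described here encode the proteins of the cytosolic ribosome in rat lung. A gene was included when the accession of its array probe was matched to a symbol beginning with Rpl or Rps and a digit, or to Rpsa, Rplp0, Rplp1 or Rplp2. The S6 kinases (Rps6k), Rps19bp1, Rpl7l1 and pseudogene symbols were left out. This gave 81 genes, 50 of the large and 31 of the small subunit, measured by 142 probes and lying on 19 chromosomes, out of 15443 gene symbols on the array.

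The cytosolic ribosome is built from a large subunit, which forms the peptide bonds, and a small subunit, which reads the mRNA. Its proteins are needed in nearly equal numbers, and in most tissues their mRNAs are among the most abundant of the cell. Many of these mRNAs begin with a C followed by a run of pyrimidines (a terminal oligopyrimidine, or TOP, tract) through which growth signals set how strongly they are translated, so that an mRNA level need not follow the amount of protein made.

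Lung RNA of 24 Fischer-344 rats, listed as 7 to 8 weeks old, was hybridized to single-colour Agilent rat arrays, 1 rat on each array. The listed age is that before exposure, which lasted several weeks, so the rats were older when the lungs were taken. The control group inhaled filtered clean air, and the low-dose, middle-dose and high-dose groups inhaled hexanal, a volatile aldehyde found as an indoor irritant, at 600, 1000 and 1500 ppm for 4 h per day on 5 days per week. Each group had 6 rats, 3 males and 3 females. Each value given below as a level is the log2 processed signal of a gene's probe minus the log2 of the 75th percentile of its array, and levels are compared between rats only.

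The start of ribosomal protein promoters is shown first, because the pyrimidine run at the start is the sequence feature by which these genes are known. Of the 81 genes, 66 had an entry in the RefSeq promoter table of the rat assembly GRCr8, and 15 had none. Each line gives 40 bases before and 20 bases from the annotated start, and the capitals mark the longest run of C and T letters counted inside the 15 bases on each side of the start, so a run that reaches past that window, such as the one at the right end of the Rpl39 line, is counted only up to its edge. Rplp0, Rplp1, Rps18 and Rpl19 were chosen for a long run at the start, and Rpl5 for a long run that ends before it. Rpl39 and its paralog Rpl39l1 were chosen as a pair whose mRNA levels varied very differently between rats.
Rplp0: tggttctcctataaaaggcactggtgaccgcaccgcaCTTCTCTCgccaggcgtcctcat
Rplp1: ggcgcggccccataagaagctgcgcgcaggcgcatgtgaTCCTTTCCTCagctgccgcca
Rps18: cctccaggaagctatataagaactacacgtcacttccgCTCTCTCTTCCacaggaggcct
Rpl19: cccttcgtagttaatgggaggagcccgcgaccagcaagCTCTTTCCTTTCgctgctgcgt
Rpl5: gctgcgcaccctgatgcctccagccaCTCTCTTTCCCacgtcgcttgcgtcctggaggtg
Rpl39: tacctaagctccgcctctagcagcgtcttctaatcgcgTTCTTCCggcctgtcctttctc
Rpl39l1: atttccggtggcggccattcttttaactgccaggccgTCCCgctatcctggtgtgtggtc

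These windows lie at chr12:46718371-46718430 on the minus strand for Rplp0, chr8:71290853-71290912 on the minus strand for Rplp1, chr20:4933705-4933764 on the plus strand for Rps18 and chr10:83519024-83519083 on the plus strand for Rpl19. The others lie at chr14:1995206-1995265 on the minus strand for Rpl5, chrX:121195877-121195936 on the minus strand for Rpl39 and chr10:5966602-5966661 on the minus strand for Rpl39l1. The marked run was 12 letters long in Rpl19, 11 in Rps18 and Rpl5, 10 in Rplp1, 8 in Rplp0, 7 in Rpl39 and 4 in Rpl39l1.

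A run of at least 8 C or T letters within 15 bases of the start was present in 42 of the 66 ribosomal protein promoters (63.6%). The same was found in 11.4% of 27457 rat promoters of the same length and in 14.3% of 63 promoters of mitochondrial ribosomal protein genes. A C at the start followed by 4 C or T letters was present in 23 of the 66 (34.8%), against 2.63% of all promoters. The letters CGGAAG, the core to which ETS-family factors bind, were found on either strand of the 300-base promoter in 36 of 66 (54.5%), against 17.4% of all and 50.8% of the mitochondrial promoters. The letters TATAAA were found on either strand in 7 of 66 (10.6%) and in 14.3% of all promoters. The reverse complement of CGGAAG is itself mostly C and T and can overlap a pyrimidine run, and a match of letters is a description of the sequence.

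Of the 81 genes, 79 passed the filter on dim probes, which asks for a signal well above background on 5 or more of 6 arrays in some group, and 77 were well above background on all 24 arrays. Rpl3l and Rpl27l2 did not pass. The 2 others that were not measured on every array were Rpl39l1 and Rps12l4. The arrays had a 75th percentile of signal between 1701 and 3133, with 70.7 to 81.7% of probes well above background and no saturated spot. The arrays lay on 6 slides of 4, each slide held 1 sex, and no control array shared a slide with a middle-dose or high-dose array. The lung identity of the samples was plain from their markers, with a median level of 5.29 to 6.14 over alveolar type II genes and 5.25 to 5.86 over alveolar type I genes. Of the marker lists examined, heart muscle genes (8 of 12 listed were measured) varied most, from a median level of -2.52 to 3.79 between rats, and 8 exposed rats (2 low-dose, 4 middle-dose and 2 high-dose) lay above every control rat.

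The mRNA levels of the cytosolic ribosomal protein genes of the lung were close to those of the control group at all doses. Over the 79 genes the median log2 difference from control was -0.0044, 0.014 and 0.025 at 600, 1000 and 1500 ppm, and 35, 49 and 51 genes were higher than in control. Over all 21255 genes tested the medians were -0.0013, 0.0047 and 0.013. Without the 8 rats high in heart muscle genes the median at 1000 ppm, where 2 rats then remained, was 0.083 with 71 of 79 genes higher (all genes 0.030). In bulk lung, fewer cells of a type and less RNA per cell cannot be told apart. That the 6 rats of a group were separate animals is given by their labels. The p-values at each dose measure the spread between arrays of a group, in which animal, sex and slide are mixed. The main fit of dose had no term for sex or slide. No control array shared a slide with a 1000 or 1500 ppm array, so a difference at those doses can also hold a difference between slides.

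No ribosomal protein gene had an adjusted p under 0.05 at any dose (limma with Benjamini-Hochberg adjustment over all genes tested), where 0, 4 and 1 of all genes tested did. At an unadjusted p under 0.05, 3 of the 79 genes were counted at each dose, a share of 3.8% against a background of 4.33%, 8.99% and 6.97% of all genes tested at 600, 1000 and 1500 ppm. Under the rule of a change of at least 1.5-fold with an unadjusted p under 0.05, 2 genes were called at the low dose (Rpl39l1 and Rps12l4), 1 at the middle dose (Rpl39l1) and 0 at the high dose. Rpl39l1 passed the filter on dim probes only through the middle-dose group, where it is high, and 5 of 6 control rats were not well above background, so its calls are no support for a change and without it 1, 0 and 0 genes were called. The background of that rule was 0.616%, 1.64% and 1.22% of all genes. Rps12l4, the gene left at 600 ppm, also had a dim probe (mean level -5.30). No ribosomal protein gene had control and exposed rats that did not overlap at any dose, and 0.273%, 0.452% and 0.48% of all genes did.

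The intervals of these differences were narrow. The median half-width of the 95% interval was 0.126 over the 79 genes and 0.274 over all genes tested. The interval lay wholly within a 1.5-fold change in 77, 77 and 78 of the 79 genes at 600, 1000 and 1500 ppm (97.5%, 97.5% and 98.7%). The shares of all genes were 76.0%, 72.5% and 73.6%, and those of 896 other genes with a mean level of at least 4 were 94.2%, 93.3% and 96.0%. Within the tighter bound of 1.25-fold lay 77, 76 and 73 of the 79 genes, against 40%, 37.4% and 38.7% of all genes and 77.2%, 75.8% and 76.2% of the other bright genes. With the slide as a fixed block in the fit, the genes within 1.5-fold numbered 77, 76 and 71.

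**Figure D1:**
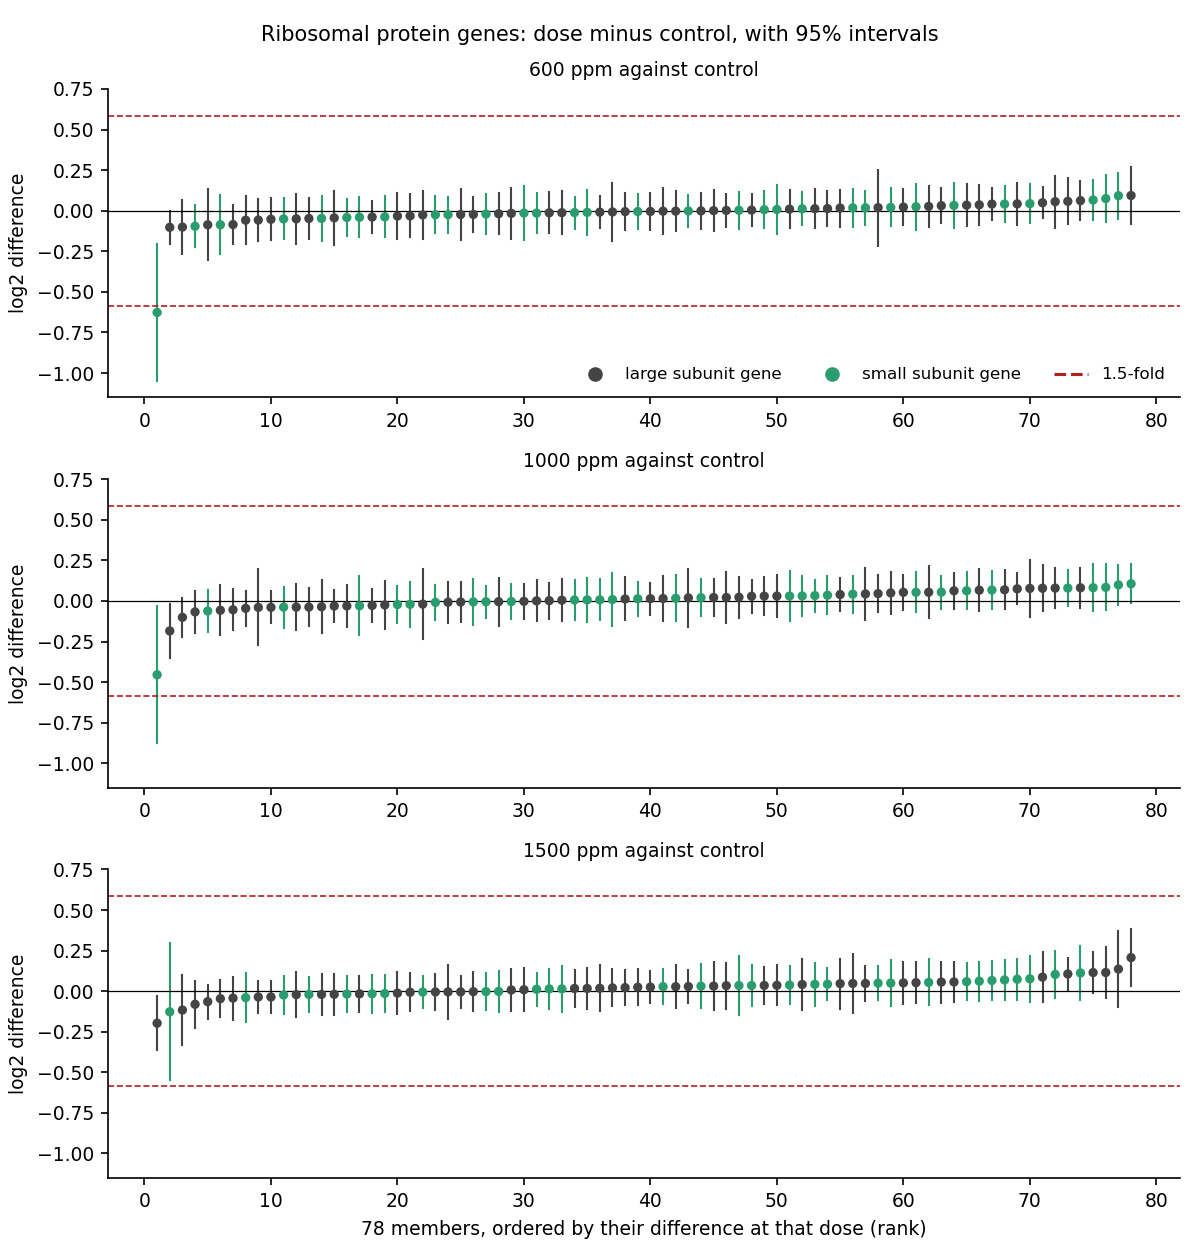
Difference from the control group on the log2 scale for 78 ribosomal protein genes at 600, 1000 and 1500 ppm, 1 point per gene with its 95% interval from limma (n = 6 rats per group), dashed lines at a 1.5-fold change; Rpl39l1 is left out because its intervals would set the scale. Nearly all intervals lie between the dashed lines, and Rps12l4 at 600 ppm (-0.63) is the lowest point.

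The ribosomal stalk recruits elongation factors to the large subunit. The mRNAs of its proteins varied more between rats of the same dose and sex than the median of the 79 genes. Their SDs were 0.125 for Rplp0, 0.114 for Rplp1 and 0.120 for Rplp2, against a median of 0.084. The stalk base gene Rplp0, much used as a reference gene, had levels from 7.04 to 7.32 with a median of 7.25 in control rats. Its lowest, median and highest levels were 7.16, 7.22 and 7.52 at 600 ppm, 6.98, 7.28 and 7.44 at 1000 ppm. At 1500 ppm they were 7.22, 7.30 and 7.51. The groups overlapped at every dose, and the differences were 0.06, 0.04 and 0.12 (adjusted p = 0.997, 0.894 and 0.808 by limma). Rplp1 differed from control by -0.02, 0.02 and 0.09 (adjusted p = 0.999, 0.952 and 0.851), and Rplp2 by -0.05, -0.06 and 0.05 (adjusted p = 0.997, 0.845 and 0.932). None of these passed the test.

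On the small subunit, Rpsa, a protein of the mRNA exit side also known as the laminin receptor precursor, had a median level of 5.20 in control rats (5.03 to 5.26) and of 5.09, 5.22 and 5.19 at the 3 doses. The high-dose rats reached 5.50 and the low-dose rats went down to 4.92, so that all groups overlapped. The differences were -0.09, -0.03 and 0.03 (adjusted p = 0.997, 0.941 and 0.959 by limma). Rps3, which lines the mRNA entry channel, differed by 0.02, 0.01 and 0.05. Rps6, the phosphorylated target of the S6 kinases, differed by -0.02, -0.0034 and -0.02, with all 24 rats between 5.37 and 5.62. Rps18 differed by -0.0016, 0.03 and 0.04, and Rps27a, made as a fusion with ubiquitin, by -0.01, 0.03 and 0.07. Across these small subunit genes no difference was larger than the spread between rats.

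On the large subunit, Rpl5 and Rpl11 form with 5S rRNA a particle that also binds the p53 regulator Mdm2. Rpl5 varied more than Rpl11, with control levels from 4.47 to 4.90 (median 4.61), and was at -0.09, -0.02 and -0.12 from control (SE 0.11, adjusted p = 0.997, 0.968 and 0.858 by limma). Rpl11 was at 0.02, -0.0024 and -0.02, with no rat below 5.92 or above 6.19. Rpl23, another Mdm2-binding protein, had 24 rats between 6.37 and 6.61 and differences of at most 0.0046 in size. Rpl13a, also used as a reference gene, was at -0.05, -0.07 and -0.01, and Rpl32 at 0.04, 0.03 and 0.05. None of these genes passed the test at any dose.

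Rpl4, a large subunit protein whose extension lines the exit tunnel, was lower at 600 ppm. Its levels were 6.02 to 6.11 (median 6.05) in control rats, 5.87 to 6.05 (median 5.94) at 600 ppm, 5.91 to 6.10 (median 6.03) at 1000 ppm and 6.00 to 6.21 (median 6.08) at 1500 ppm. Of 6 low-dose rats, 5 lay below every control rat, although 1 low-dose rat lay within the control range. The difference at 600 ppm was -0.10 (SE 0.048, limma p = 0.0459, adjusted p = 0.997, p = 0.0108 by a two-sided exact permutation test of 6 rats against 6, whose smallest p is 0.00216). At the higher doses the differences were -0.03 and 0.03. Without control replicate 2 the 600 ppm difference was -0.092 and its unadjusted p no longer under 0.05, and the same held without each of 11 other rats in turn.

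Rpl17, which lies at the mouth of the exit tunnel (chromosome 18), was lower at 1000 and 1500 ppm. Control rats had levels from 4.82 to 4.98 with a median of 4.87. The lowest, median and highest levels were 4.65, 4.84 and 4.87 at 600 ppm, 4.52, 4.73 and 4.94 at 1000 ppm. At 1500 ppm they were 4.48, 4.68 and 4.98. In both higher-dose groups 5 of 6 rats lay below every control rat, and in the low-dose group 2 did. The differences were -0.10, -0.18 (SE 0.079, p = 0.0294, adjusted p = 0.517) and -0.20 (SE 0.079, p = 0.0211, adjusted p = 0.654) by limma, with exact permutation p of 0.0238 at 1000 ppm and 0.0303 at 1500 ppm. The slope over dose was -0.14 per 1000 ppm (adjusted p = 0.475 by limma, under 0.05 unadjusted). With the slide as a fixed block, which links the high-dose to the control arrays only through slides shared with other doses, the 1500 ppm difference was 0.019 and the slope 0.0055, so the direction was not kept. The unadjusted p at 1000 ppm was above 0.05 without control replicate 2 or 23 or middle-dose replicate 12 or 33, each left out in turn, and that at 1500 ppm without high-dose replicate 18 (a difference of -0.15). Without the 8 rats high in heart muscle genes the 1000 ppm difference was -0.030 (adjusted p = 0.963) and the 1500 ppm difference -0.28 (adjusted p = 0.334 by limma).

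Rpl19, on chromosome 10, whose promoter carried the longest of the runs printed above, was higher at 1500 ppm by the probe used and not by its second probe. Its lowest, median and highest levels were 6.25, 6.37 and 6.53 in control rats and 6.25, 6.59 and 6.86 at 1500 ppm, where 4 of 6 rats lay above every control rat and 1 below the control range. Low-dose rats had 6.32 to 6.64 and middle-dose rats 6.37 to 6.58. The differences were 0.09, 0.08 and 0.21 (SE 0.086), and at 1500 ppm the limma p was 0.0246, the adjusted p 0.673 and the exact permutation p 0.0693. The second probe, also bright (mean level 5.76), was at -0.03, -0.01 and -0.10 (SE 0.063) from control, so the direction at 1500 ppm rests on 1 probe. Without high-dose replicate 16 the 1500 ppm difference was 0.15, without high-dose replicate 18 it was 0.16 and without control replicate 1 it was 0.18, and in each case the unadjusted p was above 0.05.

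Rpl6, a large subunit gene on chromosome 12, had levels of 5.94 to 6.10 (median 6.01) in control rats and 6.07 to 6.19 (median 6.12) at 1500 ppm. It was the third gene with an unadjusted p under 0.05 at that dose and is named for that after its values were seen. The difference was 0.11 (SE 0.046, p = 0.0323, adjusted p = 0.686 by limma, exact permutation p = 0.0108), the groups overlapped, and the unadjusted p was above 0.05 without control replicate 2, 21 or 23 or high-dose replicate 37, each left out in turn. Its second probe was at 0.03 from control at that dose. Over dose, 4 of the 79 genes had a slope with an unadjusted p under 0.05, against a background of 8.49% of all genes tested. These were Rpl17, downward, and Rpl19, Rpl6 and Rpl7a, upward, and no slope of the 79 had an adjusted p under 0.05 (3 of all genes did). The slopes were 0.125 per 1000 ppm for Rpl19 (adjusted p = 0.554), 0.070 for Rpl6 (adjusted p = 0.531) and 0.078 for Rpl7a (adjusted p = 0.587 by limma). The second probe of Rpl19 had a slope of the opposite direction, -0.056 per 1000 ppm. The unadjusted p of Rpl7a was above 0.05 without each of 15 rats in turn, that of Rpl19 without control replicate 1, high-dose replicate 16, 18 or 36, and that of Rpl6 without control replicate 23.

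Of the other genes with the largest differences at a dose, none passed the test. Rps26 and Rps28 at 600 ppm were 0.09 and 0.07 above control. At 1000 ppm Rps13, a small subunit protein at the interface with the large one, was 0.11 above control (SE 0.057, limma p = 0.0788, exact permutation p = 0.0931). Rps25, which some viral and cellular internal initiation needs, was 0.10 above control (SE 0.060, p = 0.111 by limma, exact permutation p = 0.0498), with levels of 2.93 to 3.06 in control and 2.96 to 3.24 in middle-dose rats. Rpl8 was at -0.10 from control at 1000 ppm (SE 0.057, adjusted p = 0.615 by limma). Rpl38, which in mouse development favours the translation of Hox mRNAs, was 0.14 above control at 1500 ppm (SE 0.11, adjusted p = 0.846 by limma), with control rats alone spanning 6.02 to 6.59.

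Several ribosomal proteins have a second gene, a paralog, that is used in particular tissues. Of these, Rpl3l and Rpl39l1 had dim probes. Rpl3l takes the place of Rpl3 in striated muscle, and its probe (chromosome 10) was well above background in 0 control, 0 low-dose, 4 middle-dose and 2 high-dose rats. Its lowest, median and highest levels were -8.05, -6.90 and -6.55 in control rats, -7.67, -7.11 and -6.12 at 600 ppm, -7.25, -5.88 and -5.16 at 1000 ppm. At 1500 ppm they were -7.10, -6.90 and -4.74. A bound for the control group was set from the higher of an array's dimmest signal well above background and the probe's own. The mean of Rpl3l lay 1.64-fold above that bound at 1000 ppm and below it at 600 ppm. At 1500 ppm it lay 1.35-fold above, with 2 of 6 rats well above background. Fitted without the filter on dim probes, the adjusted p was 0.653 at 1000 ppm and 0.885 at 1500 ppm by limma. All 6 rats in which Rpl3l was well above background were among the 8 exposed rats whose heart muscle genes lay above every control rat. The heart muscle median was 1.75 to 3.79 in those 6 rats and -2.52 to 2.55 in the 18 others, of which 2 were among the 8. Skeletal muscle genes had a median level between -3.83 and -2.48 in all rats. The part of heart muscle RNA in the level of Rpl3l was not tested. The parent gene Rpl3 was at -0.06, -0.02 and -0.08.

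Rpl39l1, the paralog of Rpl39 known from testis, was the most variable of the 79 genes and had a single probe (chromosome 10). It was well above background in 1 control, 3 low-dose, 5 middle-dose and 2 high-dose rats, and so passed the filter only through the middle-dose group. Its lowest, median and highest levels were -9.15, -8.97 and -6.17 in control rats, -8.68, -6.66 and -2.90 at 600 ppm, -8.31, -6.54 and -3.63 at 1000 ppm. At 1500 ppm they were -8.30, -6.99 and -5.39. Among control rats the female replicate 23 stood at -6.17, well above the 5 others, and 3, 2 and 1 exposed rats at the 3 doses lay above it. Most of these values are at or near background, so group means are set only against a bound for control, as for Rpl3l. That bound includes 1 control rat that was measured. The mean of Rpl39l1 lay 1.65-fold above the bound at 600 ppm (adjusted p = 0.997 by limma for the difference from control). At 1000 ppm it lay 1.62-fold above (adjusted p = 0.515 by limma), and at 1500 ppm below. Because the gene passed the filter only through the middle-dose group, these values are no support for a change. With another background correction (normexp) the direction at 1000 ppm turned (-0.017, adjusted p = 0.988 by limma). With the slide as a fixed block the adjusted p was 0.0289 at 600 ppm and 0.0629 at 1000 ppm by limma, on the same values near background. Of the 11 rats with Rpl39l1 well above background, 6 were among the 8 high in heart muscle genes, and the part of those cells in the result was not tested. Without those 8 rats the adjusted p was 0.908 and 0.665 by limma. The parent gene Rpl39 was at 0.06, 0.07 and 0.06.

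Rps12l4, a gene of chromosome 7 annotated as like Rps12, was lower at the 2 smaller doses, by a dim probe. The mean level of the gene was -5.30, and 1 low-dose rat was not well above background. Its lowest, median and highest levels were -5.44, -5.10 and -4.48 in control rats, -6.12, -5.67 and -5.11 at 600 ppm, -5.97, -5.41 and -5.09 at 1000 ppm. At 1500 ppm they were -5.43, -5.15 and -4.79. In both of the smaller dose groups 3 of 6 rats lay below every control rat, and at 1500 ppm none did. The differences were -0.63 (SE 0.20, p = 0.00558, adjusted p = 0.997), -0.45 (SE 0.20, p = 0.0365, adjusted p = 0.531) and -0.13 (p = 0.541) by limma, with exact permutation p of 0.0368 and 0.0714 at the 2 smaller doses. With the slide as a fixed block they were -0.19 at 600 ppm and 0.385 at 1000 ppm, so the direction at 1000 ppm turned. The unadjusted p at 1000 ppm was above 0.05 without control replicate 3 or 22 or middle-dose replicate 12, 13 or 33, each left out in turn. Without the rats high in heart muscle genes the 1000 ppm difference was -0.13 (adjusted p = 0.948 by limma). Whether its probe also takes up Rps12 mRNA was not tested, and Rps12 itself was at -0.10, -0.06 and 0.04 (adjusted p = 0.997, 0.793 and 0.928 by limma).

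**Figure D2:**
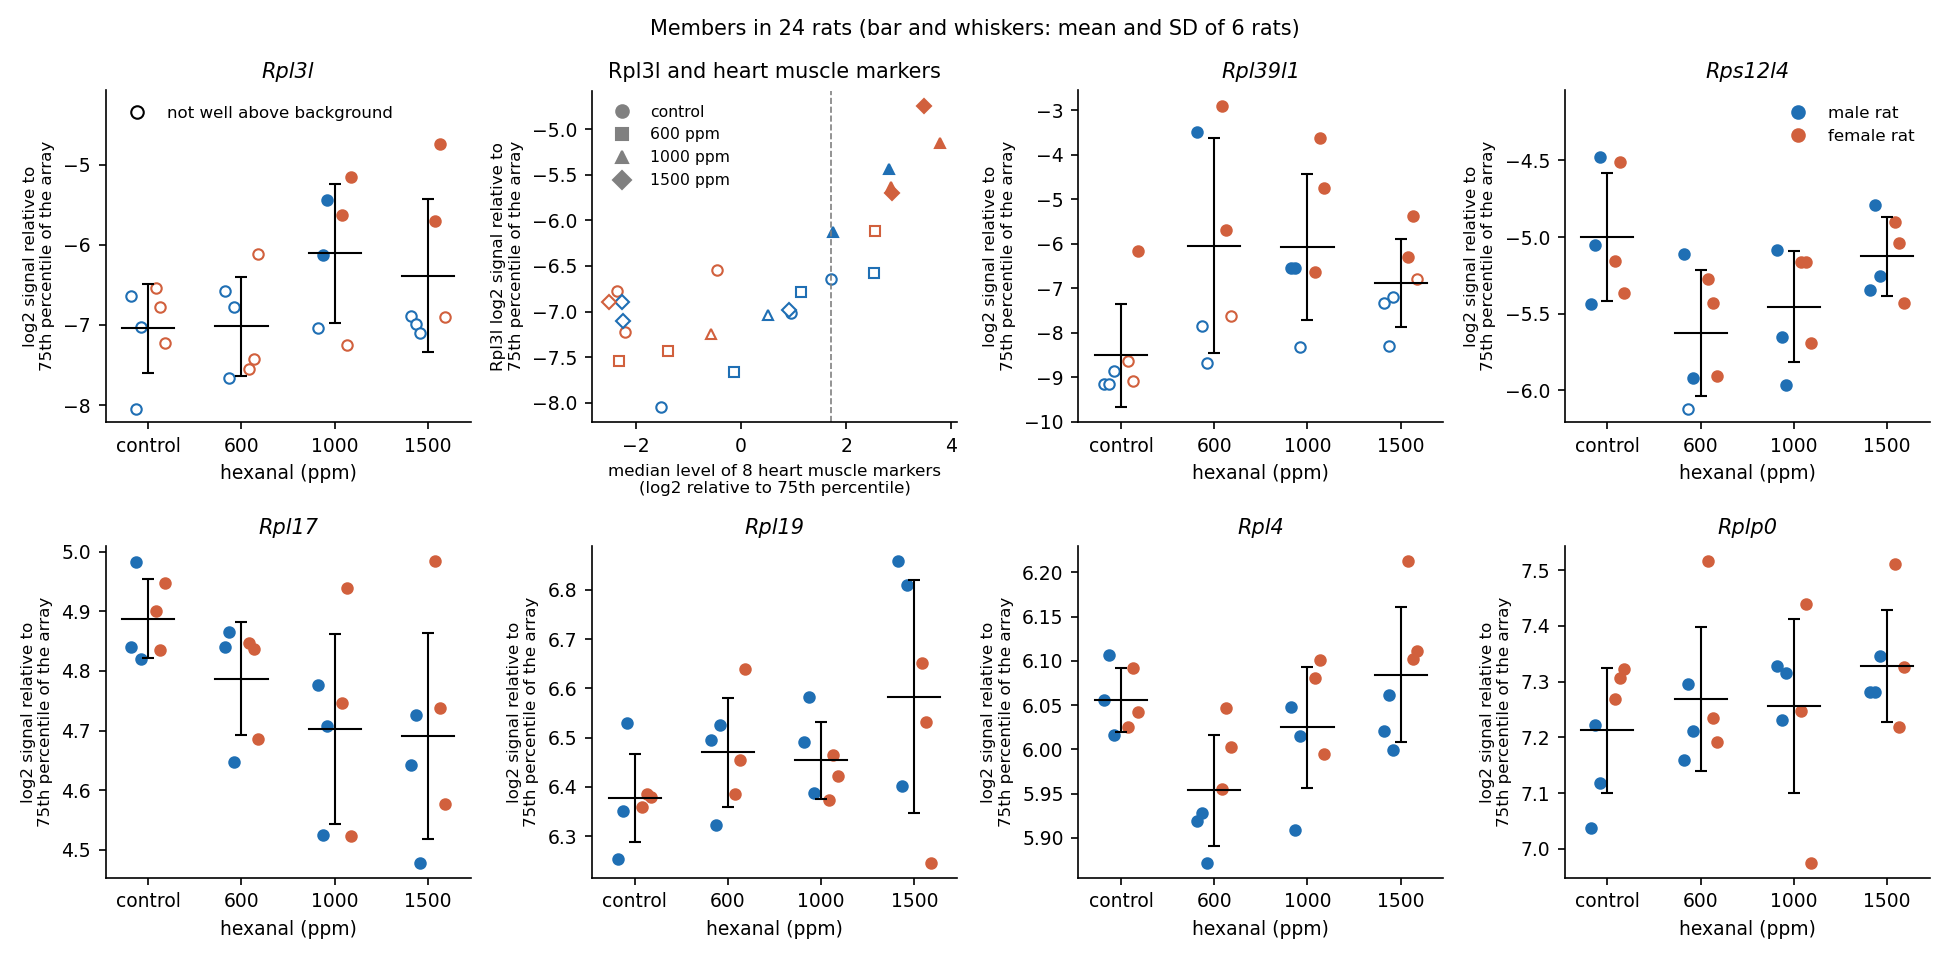
Level of Rpl3l, Rpl39l1, Rps12l4, Rpl17, Rpl19, Rpl4 and Rplp0 in each rat (log2 signal relative to the 75th percentile of the array) by hexanal dose in ppm, with points for single rats (open where not well above background, coloured by sex) and bar and whiskers for mean and SD of 6 rats, and Rpl3l against the median level of heart muscle genes with a dashed line at the highest control rat. All rats in which Rpl3l was well above background lie to the right of the dashed line, and the groups overlap in every panel.

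The paralogs expressed well above background on all arrays differed little from control. Rpl22l1, the paralog of Rpl22, was at -0.02, 0.02 and 0.06 and Rpl22 itself at -0.04, -0.04 and -0.04. Rpl36al1 was at 0.03, 0.07 and 0.03, beside -0.02, 0.05 and 0.04 for Rpl36a. Rps4y2, a relative of the X-linked Rps4x, was at -0.02, 0.02 and -0.0027, and Rps4x at 0.01, 0.03 and -0.04. Rpl27l2 was well above background in 3 rats of 24 and is not compared. The paralogs Rpl10l, Rpl26l1 and Rps27l were not matched to a probe.

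Both subunits lay close to control. Of 48 large subunit genes tested, 21, 28 and 30 were higher than in control at 600, 1000 and 1500 ppm, with medians of -0.0035, 0.013 and 0.021. Of 31 small subunit genes, 14, 21 and 21 were higher, with medians of -0.0048, 0.017 and 0.035. Where a gene had several probes that passed (47 genes), the differences given by its probes lay a median of 0.028, 0.043 and 0.040 apart at the 3 doses. Rpl36a had the widest gap at 1000 ppm (0.34). No gene had probes of opposite direction that both had a p under 0.05.

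Related gene lists are given beside these values as description. Among 67 genes of the mitochondrial ribosome, which translates the mRNAs of the organelle, 43, 53 and 53 were higher than in control, with medians of 0.029, 0.056 and 0.044. An unadjusted p under 0.05 was found in the upward direction for 4, 9 and 5 of them and in the downward direction for 0 at each dose, where 1.87%, 5.34% and 3.9% of all genes tested had one in the upward direction. Among 19 tested TOP and translation factor genes, such as elongation factors, 11, 12 and 8 were higher (medians 0.018, 0.014 and -0.016), and 0, 1 and 1 had an unadjusted p under 0.05, all downward (0%, 5.26% and 5.26%). Among 27 tested ribosome biogenesis genes, which make and assemble rRNA, 9, 10 and 17 were higher (medians -0.066, -0.038 and 0.019), with 2, 3 and 2 at an unadjusted p under 0.05 (7.41%, 11.1% and 7.41%). The shares of all genes in either direction were the 4.33%, 8.99% and 6.97% given above. Differences between these lists were not tested.

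Whether the dose effect differed between males and females was tested as an interaction on 8 groups of 3 rats. The genes varied together between rats (median correlation 0.733 over 69 genes), so counts of genes below are not counts of separate observations. A shift shared by a few arrays moves many genes at once. Males and females also lay on different slides. At 600 ppm the effect in males minus that in females was below 0 in 64 of the 79 genes, with a median of -0.117 (all genes -0.015). An unadjusted p under 0.05 was found for 9 genes (11.4%), against a background of 4.99% of all genes tested, and all 9 were lower in males, where the background is 2.94%. Each of the 9 had an adjusted p of 0.953 by limma. Among small subunit genes 30 of 31 were below 0 (median -0.152) and among large subunit genes 34 of 48 (median -0.078). Among them were Rpl15, Rpl27a, Rpl37l1, Rpl39, Rps20, Rps26 and Rps7, named after their values were seen.

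Rps26, a small subunit protein near the mRNA exit, gave the largest of these differences (-0.31, SE 0.12). Male means were 3.83 in control and 3.77 at 600 ppm. Female means were 3.62 and 3.87, with ranges of 3.57 to 3.66 and 3.84 to 3.91 over 3 rats each. Rpl39 had male means of 5.28 and 5.20 and female means of 5.21 and 5.41 (a difference of -0.28). The count of 9 was 2 after quantile normalization (5.1% of all genes tested), 2 with the slide as a fixed block (10.9% of all genes), 31 with normexp background correction (21.5% of all genes) and 0 without scaling between arrays (3.11% of all genes). Other bright genes lay in the same direction, with a median of -0.075 over 896 genes, 71 of them lower in males and 8 higher at an unadjusted p under 0.05.

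Each sex had a slide on which control and low-dose arrays lay together. On the slide of 3 control males and 1 low-dose male, the low-dose rat minus the control mean had a median of -0.061 over the 79 genes, and 6 genes were higher. On the slide of 3 control females and 1 low-dose female it was 0.047, and 54 genes were higher. These are values of 1 rat each and were not tested.

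At 1000 ppm 2 genes had an interaction with an unadjusted p under 0.05 (Rpl15 and Rpl34), against a background of 9.41%, and at 1500 ppm 3 genes did (Rpl15, Rps19 and Rps26), against 20.2%. The medians were 0.032 and -0.045, with 30 and 54 of the 79 genes below 0, and at 1500 ppm 26 of 31 small subunit genes were below 0 (median -0.074). At 1500 ppm 1 gene of the 79, Rpl15, had an adjusted p under 0.05, where 5.02% of all genes did.

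Rpl15, a large subunit protein buried in the rRNA (chromosome 15), had opposite courses in the sexes, by a probe of low signal. The mean level of the probe was -0.93. Of the ribosomal protein genes tested, only Rpl39l1 and Rps12l4 were lower, and the next higher, Rps25, had 3.04. The probe was well above background on all arrays, but whether it reports the main Rpl15 mRNA was not tested. Male means were -0.84 in control and -0.94, -0.98 and -0.98 at 600, 1000 and 1500 ppm. Female means were -1.05, -0.95, -0.92 and -0.81. Control males ranged from -0.87 to -0.81 and control females from -1.08 to -1.03 (3 rats each). High-dose males ranged from -1.09 to -0.92 and high-dose females from -0.82 to -0.79, so the order of the sexes was turned between those groups. The interaction was -0.21 (adjusted p = 0.953), -0.27 (adjusted p = 0.381) and -0.39 (SE 0.091, adjusted p = 0.0203) by limma. Over both sexes Rpl15 was at 0.00053, -0.0078 and 0.05 from control. Males and females lay on different slides, so slide and sex cannot be told apart here, and with the slide as a fixed block the 1500 ppm interaction was -0.22 (adjusted p = 0.618). Without the 8 rats high in heart muscle genes, which left replicate 38 as the only high-dose female, the 1500 ppm interaction was -0.39. The adjusted p of the 1500 ppm interaction was above 0.05 also with normexp background correction, without scaling between arrays and with the slide as a random block. The same held without control replicate 3, control replicate 23 or high-dose replicate 18, each left out in turn.

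**Figure D3:**
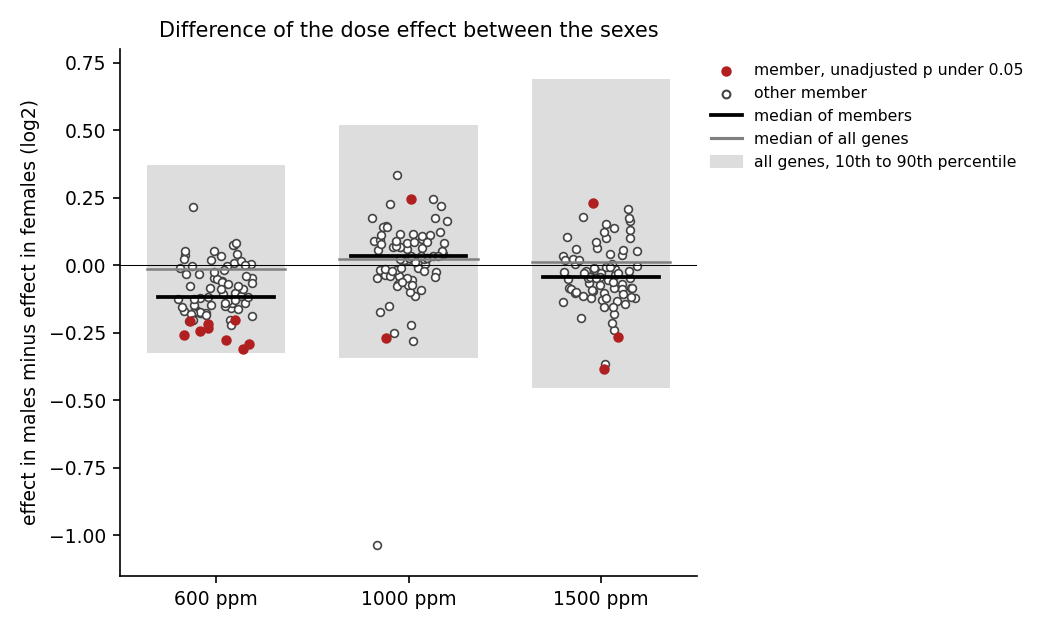
Effect in males minus effect in females (log2 scale, 3 rats per sex and dose) for each ribosomal protein gene at 600, 1000 and 1500 ppm, with filled points for an unadjusted p under 0.05 by limma, black lines for the median of the genes, grey lines for the median of all genes and grey boxes for their 10th to 90th percentile. At 600 ppm 64 of 79 points lie below 0 and the median is -0.117, at 1000 ppm 30 points lie below 0 and at 1500 ppm 54 do (medians 0.032 and -0.045).

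Averaged over doses, males and females had close levels. At an unadjusted p under 0.05, 4 of the 79 genes differed between the sexes (Rpl36a, Rps28, Rpl4 and Rpl39l1, all lower in males), against 39.3% of all genes tested, and 1 had an adjusted p under 0.05, against 26.5%. That gene was Rpl36a, on chromosome X, whose probes gave differences from control that lay up to 0.34 apart at 1000 ppm. By its brightest probe alone, it had a mean level of 5.08 in males and 5.23 in females (difference -0.15, SE 0.045, adjusted p = 0.024 by limma). Without the 8 rats high in heart muscle genes it was at -0.10 (adjusted p = 0.306). Rps28 was at -0.11 (adjusted p = 0.0536 by limma). The median over the 79 genes was -0.025, and that of all genes -0.025 as well. With 1 sex on each slide, the sexes cannot be told apart from the slides, and direction depends on scaling: without any scaling between arrays, in the table as deposited, Rpl36a was at 0.020, Rps28 at 0.051 and the median of the 79 genes at 0.140, where the median of all genes was at 0.140 too.

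The ribosomal protein genes varied together between rats. To describe this, the deviation of each gene from the mean of its dose and sex was correlated with the mean deviation of the others, over 69 genes with a mean level of at least 4. The median correlation was 0.733, with 48 genes above 0.5. Genes outside the 69 were correlated with the mean deviation of the 69 and not of their own list. Their median was 0.356 for 896 other genes above the same limit and -0.12 for the mitochondrial ribosomal protein genes. The lists were not matched for brightness, with median levels of 6.02, 4.98 and 1.19 for the 69, the 896 and the mitochondrial genes. With arrays scaled to their median the correlation was 0.609 for the 69 genes and 0.254 for the 896, and after quantile normalization 0.553 and 0.209. The median of the mitochondrial genes depended on the scaling, at 0.101 and 0.339 under these, so that it lay below that of the 896 genes under the first 2 scalings and above it under the last. Over all 2346 pairs of the 69 genes the median correlation of a pair was 0.432, and 83.4% of pairs were above 0. The points share an array and its scaling, and no test was made. The lowest correlations were those of Rpl5, Rpl19 and Rpl3 (-0.496, -0.264 and -0.262). Under quantile normalization Rpl5 was at 0.734 and Rpl19 at 0.097, so their place depends on the scaling. Genes with a pyrimidine run of at least 8 letters had a median correlation of 0.725 (39 genes) and those with a shorter run 0.763 (18 genes).

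The shared part was small. The median deviation of the 69 genes from their own means over 24 rats ran from -0.126 in a middle-dose female (a change of -8.38%) to 0.087 in a middle-dose male (a change of 6.23%). The group means were -0.0024 ± 0.035 in control rats, -0.013 ± 0.063 in low-dose rats, 0.0032 ± 0.083 in middle-dose rats and 0.015 ± 0.045 in high-dose rats (SD, n = 6). Low-dose males had a mean of -0.063 and low-dose females of 0.037, and all 3 low-dose males lay below all 3 low-dose females. Scaled to the array median these means were -0.024 and 0.025, and after quantile normalization -0.036 and 0.0091. The shared deviation went against the 75th percentile of the array (log2), with a Pearson r of -0.584 and a Spearman rho of -0.615 over 24 rats (r = -0.446 without the 2 rats farthest from the median, -0.428 in males and -0.661 in females). That percentile is subtracted from every level, so the measures are tied by construction. With arrays scaled to their median the r was 0.014, and the rats lowest and highest remained the same. After quantile normalization the shared deviation had an r of -0.022 with the first scaling, so that which rats are high or low in it depends on the scaling.

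**Figure D4:**
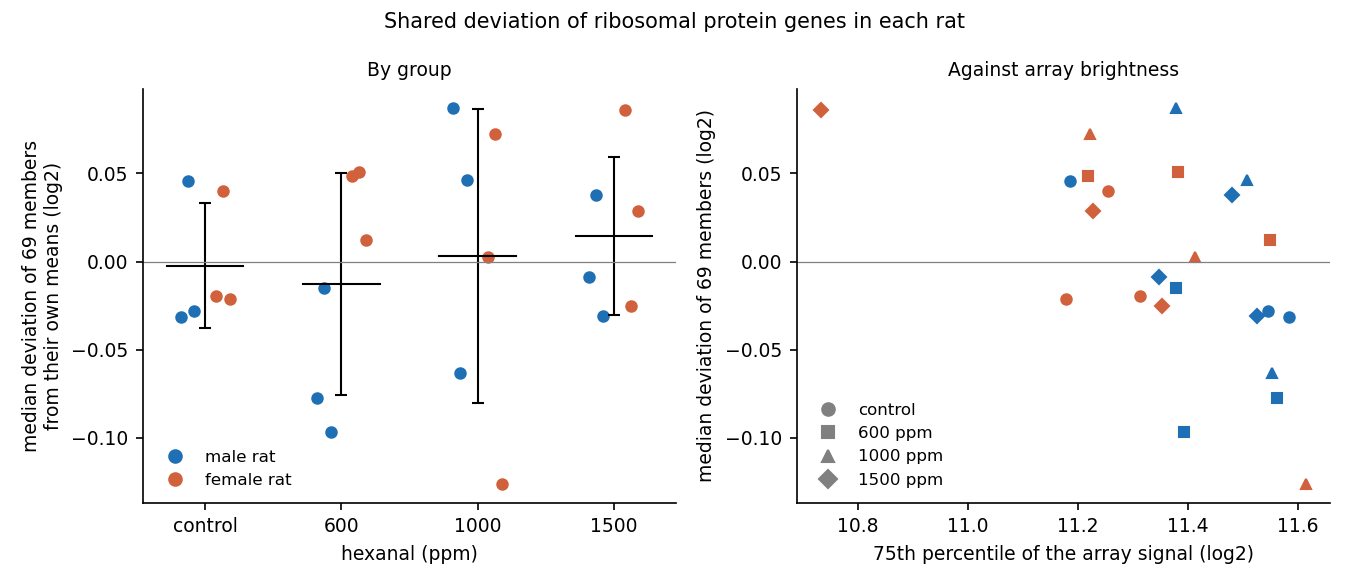
Left, median deviation of 69 ribosomal protein genes from their own means in each rat (log2 scale) by hexanal dose in ppm, with points coloured by sex and bar and whiskers for mean and SD of 6 rats; right, the same values against the log2 75th percentile of the array. Values lie between -0.126 and 0.087, the 3 low-dose males lie below the 3 low-dose females, and values are lower on arrays with a higher percentile.

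Between rats of the same dose and sex the ribosomal protein genes were among the steadiest of the array. The median SD within groups was 0.084 over the 79 genes, 0.201 over all genes tested and 0.104 over the 896 other bright genes. Of the 79 genes, 77 (97.5%) lay below the all-gene median and 46 below its 10th percentile. Rpl4 was among the steadiest (SD 0.049). The most variable were the dim Rpl39l1 (SD 1.59) and Rps12l4 (SD 0.40), and among bright genes Rpl38, Rpl5 and Rpl19.

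**Figure D5:**
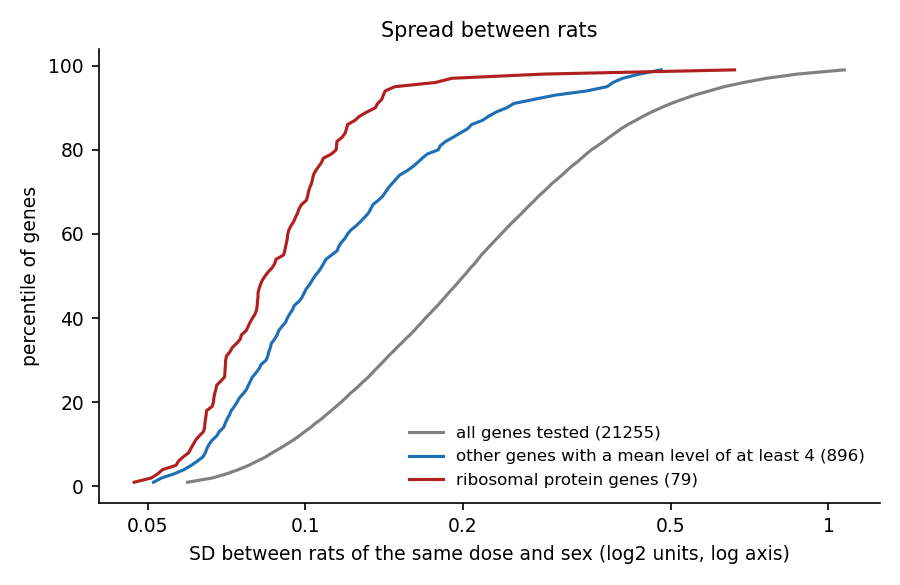
Percentile of genes (vertical axis) against the SD between rats of the same dose and sex (log2 units on a log axis), 1 line each for 79 ribosomal protein genes, 896 other genes with a mean level of at least 4 and all 21255 genes tested. The line of the ribosomal protein genes lies to the left over most of its length, with a median of 0.084 against 0.201 for all genes.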

How the data were processed

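Gene expression was measured in the lungs of 24 rats with single-colour Agilent arrays. Per the file headers, the deposited intensities are processed signals from Agilent Feature Extraction 11.5.1.1, background-subtracted and not scaled between arrays. The authors' series table held equal intensities (tolerance 0.001) for 99.7% or more of the probes of every array. The labels name the doses in ppm in the group names, and their treatment text gives the same numbers as mg per cubic meter over 5 weeks, where the paper gives ppm and another number of weeks.

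Control spots and spots marked as outliers (0.729%) were left out. The 42877 other spots gave 30367 probes, of which 18355 (60.4%) were matched by accession to 15443 symbols through a RefSeq gene table of GRCr8, used for names and chromosomes. Levels are log2 signals from which the log2 75th percentile of the array was subtracted. A probe was kept (23616 were) if some group had 5 or more of its 6 arrays well above background; the probe with the highest mean represented its gene, giving 21255 genes or unnamed probes, 12499 with a symbol. R 4.3.3 with limma 3.58.1 and the data.table package (version 1.17.8), and Python 3.11.15 with pandas 2.3.3 and matplotlib 3.10.9, were used. The contrast of every dose to control came from lmFit and eBayes on all 24 arrays, with Benjamini-Hochberg adjustment over all genes tested; a slope on dose, the interaction of dose and sex and the mean difference between the sexes were fitted likewise. A call uses the study's thresholds (1.5-fold, an unadjusted p under 0.05) with limma's p, where the study used a t-test, an alternative here. The number of arrays limits the precision. The scripts were tested on simulated data.

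The genes named are a fixed set of core genes and paralogs with their parents, the 3 highest and 3 lowest differences at each dose, and those called. The genes and the lists were chosen with earlier results of these data known. Alternatives were normexp background correction with an offset of 50 on the median spot signal (a mean signal is not in the files), scaling by quantiles, by the array median or not at all, other filters, fits on control with 1 dose, the methods' t-test, a sex covariate, slide blocks (fixed, or random with a correlation of 0.287), array weights, each probe counted or averaged, and leaving out each rat. Sequences come from the RefSeq promoter table. Results of some genes are not reported here.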

Additional observations from a re-analysis of the deposited data

Results flagged for a closer look

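In groups of 6 rats a single rat stood far from the others, measured by its gap to the nearest rat over the range of the group, in 7 of 148 groups examined (4.73%), where chance marks about 1 in 20. These were Rpl3 at 5.312 in a middle-dose male, Rpl36a at 5.352 in a control female, Rpl39l1 at -6.171 in a control female, Rpl5 at 4.182 in a high-dose female, Rps18 at 5.744 in a low-dose male, and Rpsa at 5.028 in a control male and at 5.499 in a high-dose female. The high-dose female was the same rat (replicate 36) for Rpl5 and Rpsa.

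The effect of 1500 ppm on Rpl15 differed between males and females by -0.3861 (adjusted p = 0.0203 by limma for the difference itself). With normexp, without scaling between arrays, or with the slide as a fixed or random block, the adjusted p was above 0.05. The probe of Rpl15 had a low mean level (-0.93), and whether it reports the main Rpl15 mRNA was not tested. Males and females lay on different slides, so slide and sex cannot be told apart.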

How the results depend on the processing

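No paired analysis was possible because every rat number occurs in 1 group only. Outside the count over single probes, 71 to 78 of the 79 genes kept an interval within 1.5-fold in every fit that gives one; counting each of 140 probes gave 136, 136 and 135 at 600, 1000 and 1500 ppm. Without scaling between arrays (the authors' table) the median of all genes itself moved to 0.070, 0.109 and -0.053 at the 3 doses and to 0.140 for males against females, and with normexp to -0.119 at 1000 ppm and 0.27 for the effect by sex at 600 ppm. In what follows p-counts are genes with an unadjusted p under 0.05, calls are those at 1.5-fold, a percentage in brackets is the share of all genes tested in the same fit, and the cause of a change was not tested. With normexp, calls at 600 ppm were 0 (0.188%), p-counts 8 at 1000 ppm (11.3%), 8 at 1500 ppm (5.55%) and 10 for the slope (7.17%), the median at 1000 ppm was 0.063 and Rpl39l1 there was at -0.017; for the effect by sex the p-counts were 31 at 600 (21.5%) and 8 at 1500 ppm (14.2%; 0 adjusted, 1.57%), the medians -0.257 at 600 and -0.063 at 1000 ppm, and Rpl34 at 1000 ppm was at -0.0072; between the sexes 0 genes had an adjusted p under 0.05 (10.6%) and Rpl4 was at 0.025. With quantile normalization calls at 600 ppm were 1 (0.598%), p-counts for the effect by sex 2 at 600 (5.1%) and 6 at 1500 ppm (20.5%), its median at 1000 ppm -0.054, and 9 genes differed between the sexes (37.4%; 3 adjusted, 24.3%). With array median scaling the p-counts were 1 for the slope (8.19%), and 1 and 7 for the effect by sex at 1000 and 1500 ppm (9.58% and 20.2%), and 12 genes (41.2%; 6 adjusted, 28.5%) differed between the sexes, with a median of 0.027. Without scaling, calls at 600 ppm were 1 (0.659%), p-counts 1 at 1000 ppm (8.31%), 1 at 1500 ppm (3.76%) and 1 for the slope (4.37%), with medians of 0.066, 0.119 and -0.040 at the doses and -0.013 for the slope; for the effect by sex the p-counts were 0, 0 and 1 (3.11%, 4.78% and 16.6%; 0 adjusted, 4.41%) and the medians -0.245, -0.093 and 0.113; between the sexes 30 genes differed (41.2%; 4 adjusted, 22.8%), with a median of 0.140, Rpl36a at 0.020, Rpl4 at 0.097 and Rps28 at 0.051. Without a filter on dim probes 2 genes were called at 1000 ppm (2.05%), Rpl39l1 and Rpl3l, both near background, and the effect by sex there had a p-count of 1 (8.29%). With genes well above background on all 24 arrays the p-counts were 1 and 1 (4.4% and 9.45%), and the calls 0 and 0 (0.267% and 1.2%), at 600 and 1000 ppm. The methods' t-test, and a fit on control and 1 dose, each called 1 gene at 1500 ppm (0.885% and 1.19%). With the slide as a fixed block, 600 ppm had a p-count of 1 (5.32%), 1 call (1.07%) and 1 adjusted p under 0.05 (Rpl39l1); 1000 ppm had a p-count of 1 (3.73%) and Rps12l4 at 0.385; 1500 ppm had 2 calls (1.91%), a median of 0.066 and Rpl17 at 0.019; the slope had a p-count of 2 (2.63%) and Rpl17 at 0.0055; the effect by sex had p-counts of 2 at 600 (10.9%) and 10 at 1500 ppm (19.2%; 0 adjusted, 0.781%), a median of -0.206 at 1500 ppm, Rpl34 at -0.070 and Rps19 at -0.105. With the slide as a random block, calls at 600 and 1500 ppm were 1 (0.696% and 0.659%), p-counts 1 at 1000 ppm (7.06%), 1 at 1500 ppm (3.12%), 1 for the slope (3.6%), 1 and 1 (5.59% and 14.8%; 0 adjusted) for the effect by sex at 1000 and 1500 ppm, and 2 (30.6%; 0 adjusted, 14.8%) between the sexes. Array weights gave p-counts of 5 at 600 ppm (9.51%), 6 for the effect by sex at 1500 ppm (28.4%) and 12 (44.8%; 5 adjusted, 34.4%) between the sexes. Counting each probe gave p-counts of 5 at 1000 ppm (8.9%), 21 and 9 for the effect by sex at 600 and 1500 ppm (4.89% and 19.7%) and 13 (38.8%; 4 adjusted, 25.9%) between the sexes. Without the 8 rats high in heart muscle genes, chosen after seeing the data, the median at 1000 ppm was 0.083. The p-counts were then 1 at 1500 ppm (7.46%), 1 for the slope (7.05%) and 2 (26.2%) between the sexes. The effect by sex at 1000 and 1500 ppm is not counted in that fit, because some groups of sex and dose kept only 1 rat. Leaving out each rat gave p-counts of 2 to 3 at 600 ppm (calls 1 to 2), 2 to 4 at 1000 ppm (calls 1), 1 to 3 at 1500 ppm (calls 0 to 1), 2 to 5 for the slope, 4 to 13, 1 to 5 and 2 to 4 for the effect by sex (adjusted 0 to 1 at 1500 ppm), and 3 to 11 (adjusted 1 to 4) between the sexes; medians ran from -0.017 to 0.014, -0.0046 to 0.037 and 0.0059 to 0.038 at the doses, and from -0.124 to -0.081 and -0.0083 to 0.076 for the effect by sex at 600 and 1000 ppm. Calls at 600 ppm were 1 without control replicate 3 or 22 or low-dose replicate 7, 8 or 28, the p-count at 1500 ppm was 1 without high-dose replicate 18, and that between the sexes was 11 without middle-dose replicate 33. Of the named genes' values, 623 of those with 1 rat left out kept direction and side of the threshold and 121 lost the threshold; of those under other alternatives 228 kept both, 124 lost the threshold and 11 turned. Arrays at or near background limit Rpl39l1, Rpl3l and Rps12l4.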
